A study of Mus musculus with 5 samples.

Results

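STAT transcription factors and the Janus kinases (JAKs) that activate them were followed by RNA sequencing in brain microglia, the resident macrophages of the brain, that had lost A20. The 9 genes described are Stat2, Stat3, Stat4, Stat5a, Stat5b, Stat6, Jak1, Jak2 and Tyk2, found by gene symbol among 41388 genes of 1 table of read counts. Of these, 8 passed a filter on low counts that left 12240 genes for testing, and Stat4 did not. The A20 deletion group (genotype eYFP-A20Dmg, 3 libraries) is labelled as fully deficient for A20. The control group (genotype eYFP-A20fl/wt Cx3cr1-CreERT2/+, 2 libraries) is labelled as partially deficient. Its cells carry 1 floxed and 1 wild-type allele together with a tamoxifen-inducible Cre recombinase driven from the Cx3cr1 locus, which is active in microglia and other macrophages. The control is therefore not a wild type. All mice were C57Bl/6 animals aged 4 weeks that had been given 2 mg tamoxifen on postnatal days 14 and 16, and cells were sorted for the reporter eYFP. The Tnfaip3 gene encodes A20, a protein that edits ubiquitin chains and dampens NF-kB activation. Whether each library stems from its own animal is not stated in the labels, and the spread behind every p-value may therefore be partly technical.

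JAKs are tyrosine kinases bound to the inner tails of cytokine receptors. When a cytokine joins its receptor chains, the kinases phosphorylate each other, the receptor and then STAT proteins, which pair through their SH2 domains, enter the nucleus and switch on target genes. STATs are controlled mainly by phosphorylation, while the amount of transcript sets how much protein can be made. In microglia this pathway carries signals from interferons, interleukin-6 and interleukin-10, GM-CSF and interleukin-4.

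Stat2 is the STAT that type I interferon places in a complex with the DNA-binding protein Irf9, and this complex binds interferon-stimulated response elements (ISREs). The stretch before the Stat2 start site is shown because Stat2 was the member whose A20 deletion libraries all lay above both controls. A stretch before the second annotated Stat4 start is shown because it also holds an ISRE-type match while Stat4 was close to absent. Each line gives the 250 bases before the start (RefSeq, GRCm38.p6, plus strand, 5′ to 3′) at chr10:128270248-128270497 for Stat2 and chr1:52007990-52008239 for Stat4. Capitals mark a match to GAAANNGAA on either strand.
Stat2: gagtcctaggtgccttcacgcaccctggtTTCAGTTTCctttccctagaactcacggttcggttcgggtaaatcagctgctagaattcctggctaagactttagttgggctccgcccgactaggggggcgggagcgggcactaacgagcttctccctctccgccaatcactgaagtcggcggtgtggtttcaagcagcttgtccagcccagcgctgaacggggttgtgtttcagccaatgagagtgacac
Stat4: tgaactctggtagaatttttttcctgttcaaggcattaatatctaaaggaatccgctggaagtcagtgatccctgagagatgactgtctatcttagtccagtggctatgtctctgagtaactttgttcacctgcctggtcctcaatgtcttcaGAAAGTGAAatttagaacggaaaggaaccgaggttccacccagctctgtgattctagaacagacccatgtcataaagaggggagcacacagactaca
In Stat2 the match lay on the opposite strand, where it reads GAAACTGAA, from base -221 to base -213 counted from the start at 0. In Stat4 it lay on the printed strand and reads GAAAGTGAA, from base -97 to base -89.

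By GENCODE M21 on GRCm38, Stat2 (ENSMUSG00000040033) lies on chromosome 10 from 128270559 to 128292849 and Stat6 (ENSMUSG00000002147) on the same chromosome from 127642986 to 127660957. Stat5b (ENSMUSG00000020919, 100780731 to 100850724), Stat5a (ENSMUSG00000004043, 100859351 to 100885169) and Stat3 (ENSMUSG00000004040, 100885098 to 100939540) follow each other on chromosome 11. Stat4 (ENSMUSG00000062939) lies on chromosome 1 from 51987148 to 52107189, Jak1 (ENSMUSG00000028530) on chromosome 4 from 101152367 to 101265282, Tyk2 (ENSMUSG00000032175) on chromosome 9 from 21104068 to 21131243 and Jak2 (ENSMUSG00000024789) on chromosome 19 from 29251828 to 29313080.

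Across 12 promoter windows of the 9 members (300 bases each, of which 50 follow the start), 2 held this ISRE-type motif, 0 held the STAT dimer motif TTCNNNGAA and 1 held the kB consensus. The window with the kB match belonged to the second Stat5a start. Among 32851 mouse promoter windows of the same length, 8.56% held the ISRE-type motif, 8.3% the STAT dimer motif and 8.46% the kB consensus, each sought on both strands. Of 20 interferon-stimulated genes listed as Stat2 targets, 16 had a window. Their 18 windows held the ISRE-type motif in 11 cases (61.1%), and the STAT dimer motif and the kB consensus in 4 each (22.2%). A match describes these letters only.

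Libraries held between 9726334 and 12883827 counts in the A20 deletion group and 13946211 and 15275199 in the controls. The 3 A20 deletion libraries were unlike each other. The mitochondrial share of counts was 0.847%, 4.63% and 3.56% in A20 deletion replicates 1, 2 and 3, against 1.19% and 0.852% in the controls. Genes longer than the median held 44.9%, 37.8% and 38.5% of tested counts in A20 deletion replicates 1, 2 and 3, against 47.9% and 46.8% in the controls. Xist was detected in A20 deletion replicate 1 and control replicate 1 and in no other library. Microglial markers were abundant, and Csf1r and Tmem119 averaged 12570 and 4798 CPM in A20 deletion libraries and 16040 and 5770 CPM in controls. CPM, the usual per-million scale, were taken on TMM-scaled library totals. The 12 microglial markers summed to 43500, 45200 and 40400 CPM in A20 deletion libraries, against 54500 and 60100 CPM in controls. Of these markers 9 lay below both controls in every A20 deletion library and 1 above (median log2 difference -0.39). Among all tested genes 18.5% lay below both controls in this way and 21.8% above. In edgeR 2 markers passed, Fcrls (2.38-fold lower) and Aif1 (2.2-fold higher). Tnfaip3 stood at 294.6, 276.9 and 347.5 CPM in A20 deletion libraries and at 454.1 and 94.75 CPM in controls. Gene-level counts of this kind cannot check the label.

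Among the 9 members, Stat2 was the gene with the clearest difference, and 0 members passed the threshold of an adjusted p under 0.05. Across all tested genes 2.08% were called higher and 0.507% lower, and among 8 genes such shares amount to less than 1 call. At an unadjusted p under 0.05 there was 1 member, Stat2. On the log2 scale the 8 tested members had a median difference of -0.33, and all tested genes one of 0.05. In bulk RNA, fewer cells of a type and less RNA per cell cannot be told apart.

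**Figure D1:**
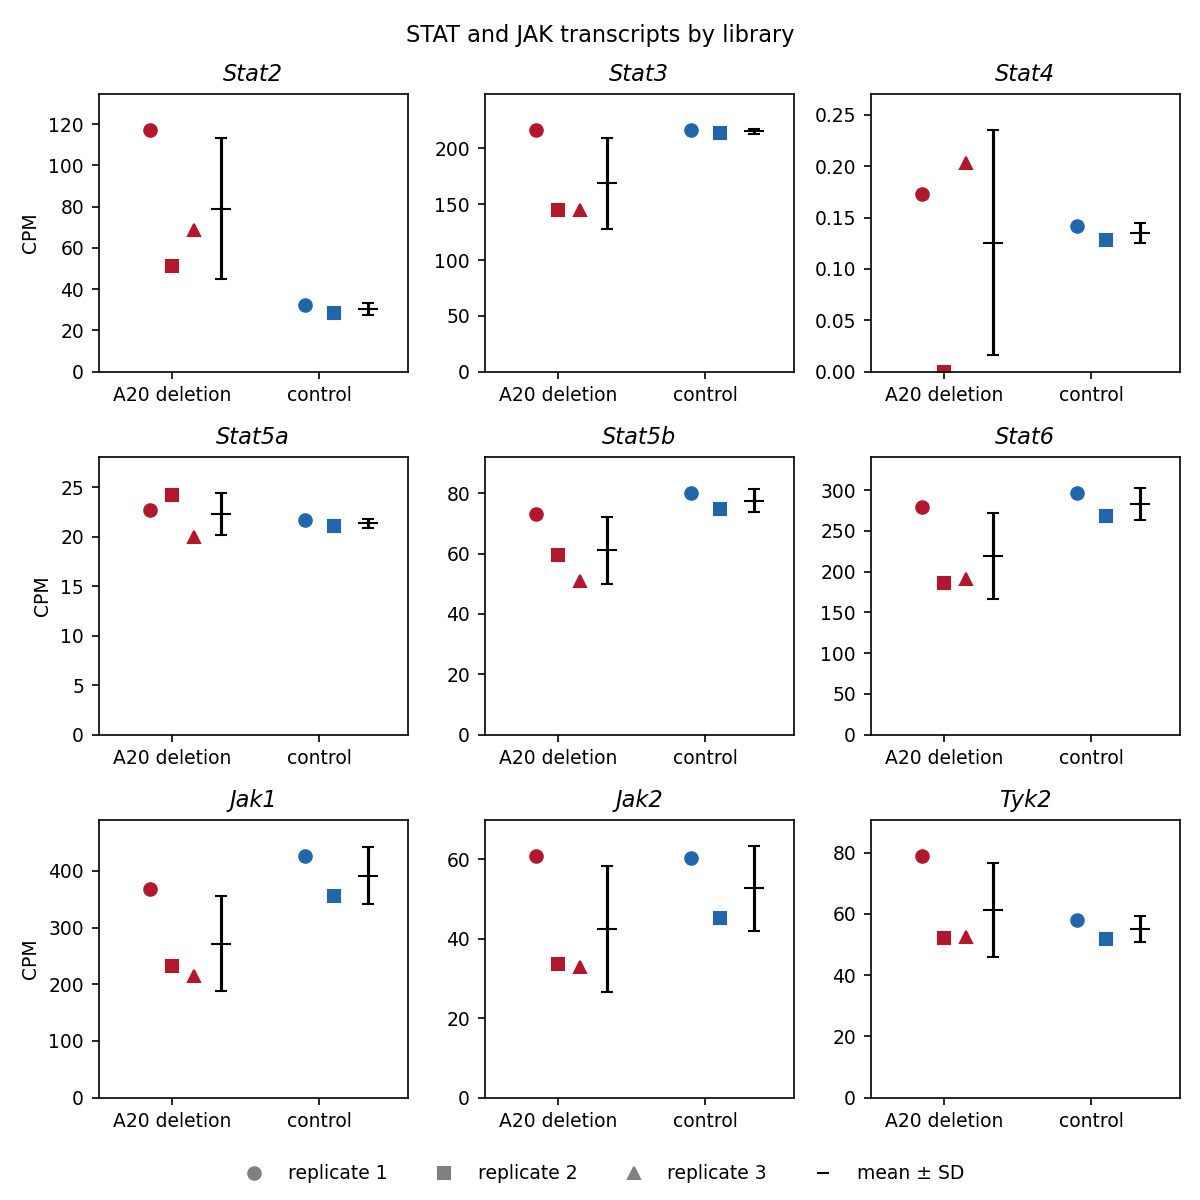
Level of each member in CPM (vertical axes, each from 0) in A20 deletion libraries (red, left) and controls (blue, right), with 1 point per library, the marker giving the replicate number and the bar the mean ± SD. Stat2 stands at 51.25 CPM or more in A20 deletion libraries and at 32.44 CPM or less in controls, while A20 deletion replicates 2 and 3 lie lowest for Stat3, Stat6, Jak1 and Jak2.

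Stat2 had 117.3, 51.25 and 68.55 CPM in A20 deletion replicates 1 to 3, against 32.44 and 28.23 CPM in the controls. Every A20 deletion library lay above both controls, and replicate 1 was the highest by a wide margin. Means were 79.04 ± 34.25 CPM in A20 deletion microglia and 30.33 ± 2.979 CPM in controls (SD, n = 3 and 2), a 2.61-fold difference. The log2 fold change was 1.38 (SE 0.35) with an edgeR p of 0.00551 and an adjusted p of 0.103, so Stat2 did not pass over all genes. By p it held place 655 of 12240 genes. Groups did not overlap, with A20 deletion higher, in 21.8% of all genes tested, so the separation by itself does not set Stat2 apart.

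Whether Stat2 passed depended on the fit, and its direction did not. Its log2 fold change lay between 0.95 and 1.96 in the 20 alternative settings that were run, and it passed in 6 of them. The settings that only tighten the cut-off reuse the main fit, so Stat2 could not pass there. It passed without A20 deletion replicate 1 (log2 0.95, adjusted p = 0.0065), where 15.7% of all genes were called higher. With A20 deletion replicate 1 as the only A20 deletion library it also passed (log2 1.96, adjusted p = 0.00093, 2.64% of genes called higher), with that library assumed to vary like the controls. With the mitochondrial share as a covariate the log2 fold change was 1.90 (adjusted p = 0.000832, 2.77% of genes called higher). That share was high only in A20 deletion replicates 2 and 3 (4.63% and 3.56%). The covariate therefore nearly marks these libraries, and the fit comes close to replicate 1 against the controls. With detection of Xist as a covariate the log2 fold change was 1.41 (adjusted p = 0.0142, 4.6% called higher). DESeq2 gave an adjusted p of 0.00608 (6.08% called higher), and edgeR without a filter 1.36e-06 (5.06% called higher). Over all alternatives adjusted p ran from 1.36e-06 to 0.49. The highest values came from leaving out a control, 0.414 without control replicate 1 and 0.49 without control replicate 2.

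Relative to the other STATs, Stat2 took a larger part of the family's transcripts in A20 deletion microglia. On the scale of counts per kilobase of exon it made up 16.2%, 10.8% and 14.1% of the 6 STAT members in A20 deletion replicates 1 to 3, against 4.84% and 4.55% in the controls. The groups did not overlap, and this share does not depend on scaling between libraries. Means were 13.7% ± 2.72 in A20 deletion libraries and 4.69% ± 0.205 in controls, a difference of 8.98 percentage points. An exact two-sided permutation test over samples gave p = 0.2, the smallest p that 3 against 2 libraries allow.

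Genes with the most similar pattern to Stat2 over the 5 libraries were Ube2l6, Ifih1 and Epb41l3. Likeness was the root mean square difference of gene-centred log2 CPM, taken over 8218 well-expressed genes, and Stat2 was chosen for it after its values were seen. Ube2l6, a ubiquitin-conjugating enzyme that also transfers Isg15, differed from Stat2 by 0.106 on that scale. It had 72.26, 37.18 and 49.1 CPM in A20 deletion libraries, against 19.99 and 17.7 CPM in controls. The cytosolic RNA sensor Ifih1 differed by 0.136 and the membrane skeleton protein Epb41l3 by 0.147. None of the 3 passed in edgeR, with Ube2l6 at a log2 fold change of 1.49 (adjusted p = 0.0542), Epb41l3 at 1.34 (adjusted p = 0.0504) and Ifih1 2.33-fold higher (adjusted p = 0.142).

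Stat3, which carries interleukin-6 and interleukin-10 signals, had 216.1, 145.2 and 144.7 CPM in A20 deletion replicates 1 to 3, against 216.7 and 213.8 CPM in controls. Replicate 1 sat between the controls and replicates 2 and 3 lay below both. In edgeR the difference was -0.35 on the log2 scale (SE 0.22, adjusted p = 0.37). Stat6, the factor of interleukin-4 and interleukin-13, showed the same arrangement with 279.5, 185.8 and 191.2 CPM in A20 deletion libraries, against 296.7 and 268.7 CPM in controls. Its log2 fold change was -0.37 (SE 0.22, adjusted p = 0.352).

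Stat5a and Stat5b lie next to each other on chromosome 11 and encode closely related factors that act after GM-CSF, interleukin-2 family cytokines and growth hormone. Stat5a had 22.7, 24.21 and 19.96 CPM in A20 deletion libraries, against 21.7 and 21.04 CPM in controls, and the groups overlapped (log2 0.06, SE 0.18, edgeR adjusted p = 0.859). Stat5b had 73.04, 59.43 and 50.83 CPM in A20 deletion libraries, against 80.17 and 74.86 CPM in controls. All A20 deletion libraries lay below both controls, as they did in 18.5% of all genes tested, and Stat5b did not pass (log2 -0.34, SE 0.19, adjusted p = 0.339).

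The balance between the Stat5 paralogs was read within each library. Stat5a made up 23.7%, 28.9% and 28.2% of Stat5a plus Stat5b counts in A20 deletion replicates 1 to 3, against 21.3% and 21.9% in controls. The means were 27% ± 2.83 in A20 deletion libraries and 21.6% ± 0.453 in controls, with no overlap, and the exact two-sided permutation p was 0.2, again the smallest possible. The exact 95% binomial interval of A20 deletion replicate 1, 21.2% to 26.3%, overlapped those of both controls (19.2% to 23.5% and 19.9% to 24.1%), whereas replicates 2 and 3 had intervals of 26.2% to 31.8% and 24.9% to 31.7%. These intervals cover counting error only. Of 50-base windows in annotated transcripts, 8.52% of those of Stat5a and 11% of those of Stat5b also occur in another gene, most of them in the paralog, so part of the reads could be placed in either gene or dropped.

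Stat4, the factor of interleukin-12 signalling best known from T and NK cells, was close to absent. It had 2, 0 and 2 counts in A20 deletion replicates 1 to 3 and 2 and 2 counts in the controls, so no library exceeded the floor of 3 counts, which corresponded to 0.192 to 0.306 CPM. No fold change is given. Of its 50-base windows 21.7% are shared with other genes, chiefly the overlapping Gm28177, which had 0 counts in all libraries. Transcripts of T and NK cells were scarce as well. The 22 listed markers summed to 12.6, 7.55 and 6.93 CPM in A20 deletion libraries, against 1.14 and 1.8 CPM in controls, and 15 of the 22 had 0 counts in both controls, among them the T cell receptor components Cd3e, Cd3d, Cd3g and Trac. Cd3e had 4, 5 and 4 counts in A20 deletion libraries. Cd4 was detected in both controls, with 3.985, 2.673 and 2.75 CPM in A20 deletion libraries, against 0.5691 and 1.026 CPM in controls. It did not pass in edgeR (adjusted p = 0.131) and was called higher with DESeq2 and without A20 deletion replicate 1. The part of these cells in the pathway results below was not tested.

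Jak1, the kinase shared by interferon, gp130 and common gamma chain receptors, had the largest negative value of the group. It stood at 367.5, 231.7 and 215.4 CPM in A20 deletion replicates 1 to 3, against 426.5 and 355.6 CPM in controls. A20 deletion replicate 1 lay between the controls, and replicates 2 and 3 below both. In edgeR the difference was -0.53 on the log2 scale (SE 0.26, adjusted p = 0.283). Jak2, which serves GM-CSF, interleukin-12 and interferon gamma receptors, had 60.91, 33.65 and 33 CPM in A20 deletion libraries, against 60.32 and 45.16 CPM in controls (log2 -0.31, SE 0.31, adjusted p = 0.563). Tyk2, the kinase of the type I interferon and interleukin-12 receptors, had 79.01, 52.12 and 52.56 CPM in A20 deletion libraries, against 58.05 and 51.96 CPM in controls (log2 0.16, SE 0.23, adjusted p = 0.703). Only replicate 1 stood above the controls for Tyk2, while replicates 2 and 3 lay between them.

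**Figure D2:**
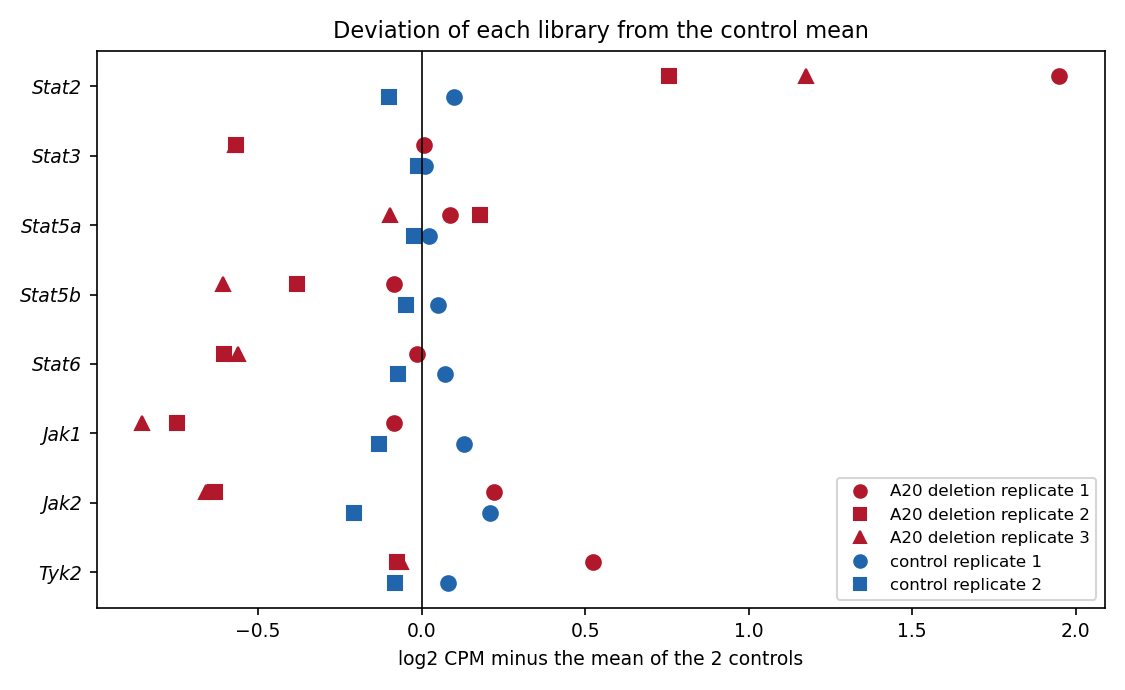
Log2 CPM of each library minus the mean of the 2 controls (horizontal axis) for the 8 tested members (vertical axis), with A20 deletion libraries in red and controls in blue, and the marker giving the replicate. For Stat3, Stat6, Jak1 and Jak2 A20 deletion replicate 1 lies near the controls, and replicates 2 and 3 lie between -0.85 and -0.56, while all 3 lie at 0.76 or more for Stat2.

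For most members the difference thus came from A20 deletion replicates 2 and 3. On the log2 scale replicates 2 and 3 deviated from the control mean by -0.57 and -0.57 for Stat3, -0.60 and -0.56 for Stat6, -0.75 and -0.85 for Jak1 and -0.63 and -0.66 for Jak2. Replicate 1 deviated by 0.01, -0.02, -0.08 and 0.22 for the same genes. For Stat2 replicates 1 to 3 deviated by 1.95, 0.76 and 1.18. A20 deletion replicates 2 and 3 were also the libraries with the highest mitochondrial and the lowest long-gene shares. They held 0 Xist counts and 2257 and 1304 Y-chromosome counts, against 616 and 7 in A20 deletion replicate 1. Control replicates 1 and 2 held 780 and 0 Xist counts and 14 and 2175 Y-chromosome counts. The part of any of these features in the members' values was examined only through the fits that follow. Those fits cannot separate the mitochondrial share from A20 deletion replicates 2 and 3, where it was high.

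Without A20 deletion replicate 1, the remaining libraries gave 5 members lower (Stat3, Stat5b, Stat6, Jak1 and Jak2, edgeR adjusted p between 0.0044 and 0.027) and Stat2 higher. In that fit 16.7% of all genes were called lower, and the genotype cannot be told apart from the structure shared by replicates 2 and 3. With A20 deletion replicate 1 alone against the controls, log2 fold changes were 0.015 for Stat3, -0.01 for Stat6, -0.08 for Jak1 and 0.22 for Jak2, and none of these passed. With the mitochondrial share as a covariate they were -0.06 for Stat3, -0.08 for Stat6, -0.19 for Jak1 and 0.10 for Jak2. This share was high only in A20 deletion replicates 2 and 3, so the fit lies close to that of replicate 1 alone. With detection of Xist as a covariate log2 fold changes were -0.326 for Stat3, -0.331 for Stat6, -0.477 for Jak1 and -0.244 for Jak2. After each library's trend with gene length was removed they were -0.15 for Stat3, -0.36 for Stat6, -0.38 for Jak1 and -0.27 for Jak2. Stat2 stood at 1.46 in that last fit (adjusted p = 0.0598).

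**Figure D3:**
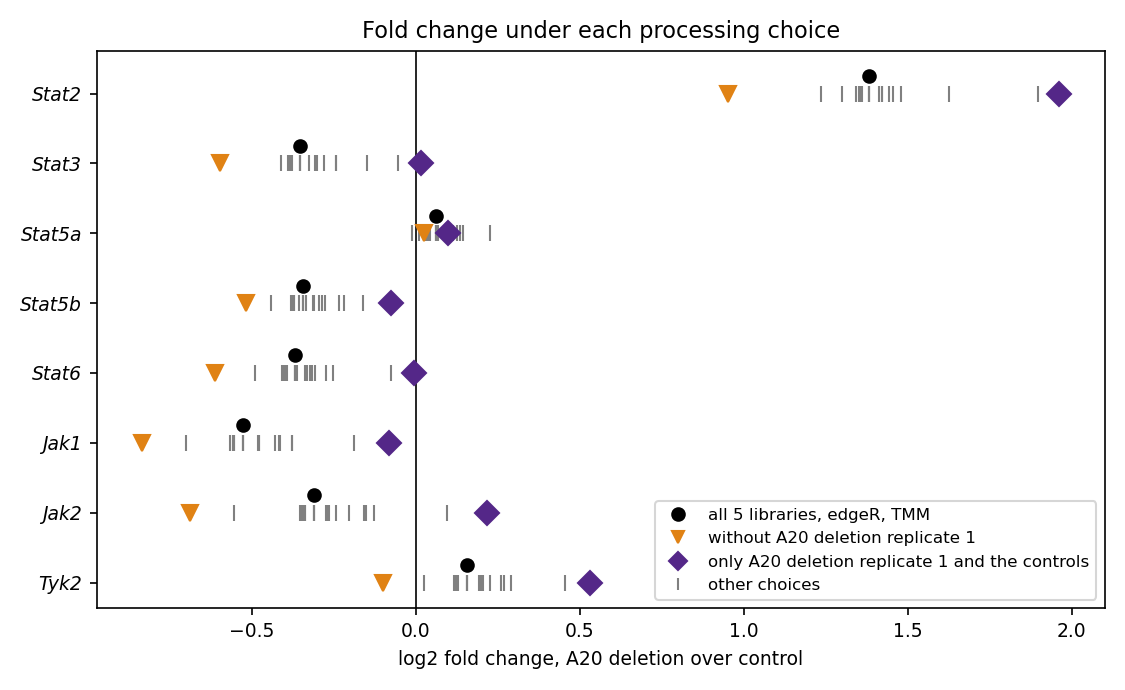
Log2 fold change of A20 deletion over control (horizontal axis) for each tested member (vertical axis) in the fit to all 5 libraries (black circle), without A20 deletion replicate 1 (orange triangle), with only that A20 deletion library (purple diamond) and under the other processing choices (grey ticks). Stat2 lies at 0.95 or above in every setting, while the diamonds of Stat3, Stat6 and Jak1 lie within 0.1 of 0.

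Levels between members were compared per kilobase of exon. Stat6 was the most abundant member, at 49.7 ± 11.9 CPM per kilobase in A20 deletion libraries and 64.2 ± 4.5 in controls, followed by Jak1 with 37.6 ± 11.6 in A20 deletion libraries and 54.1 ± 6.94 in controls. Stat3 held the third place in both groups (17.7 ± 4.31 in A20 deletion libraries and 22.6 ± 0.213 in controls). Stat2 held place 4 in A20 deletion libraries, at 13.3 ± 5.78 CPM per kilobase, and place 7 in controls, at 5.12 ± 0.503. In controls it lay below Stat5b (14 ± 0.678), Jak2 (10.5 ± 2.13) and Tyk2 (8.01 ± 0.627), and the ranges of no neighbouring pair in the order overlapped. In A20 deletion libraries the ranges of neighbours overlapped from Stat3 through Stat2, Stat5b (11 ± 2.02) and Tyk2 (8.92 ± 2.24) to Jak2 (8.45 ± 3.17), as did those of Stat6 and Jak1, so these neighbours are not separated beyond the spread. Within single A20 deletion libraries Stat6 above Jak1, Stat3 above Stat2 and Stat5b above Tyk2 held in 3 of 3, and Stat2 above Stat5b and Tyk2 above Jak2 in 2 of 3. Stat5a and Stat4 were lowest in both groups, at 3.13 ± 0.302 and 0.0325 ± 0.0284 CPM per kilobase in A20 deletion libraries and 3 ± 0.065 and 0.0349 ± 0.00255 in controls.

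**Figure D4:**
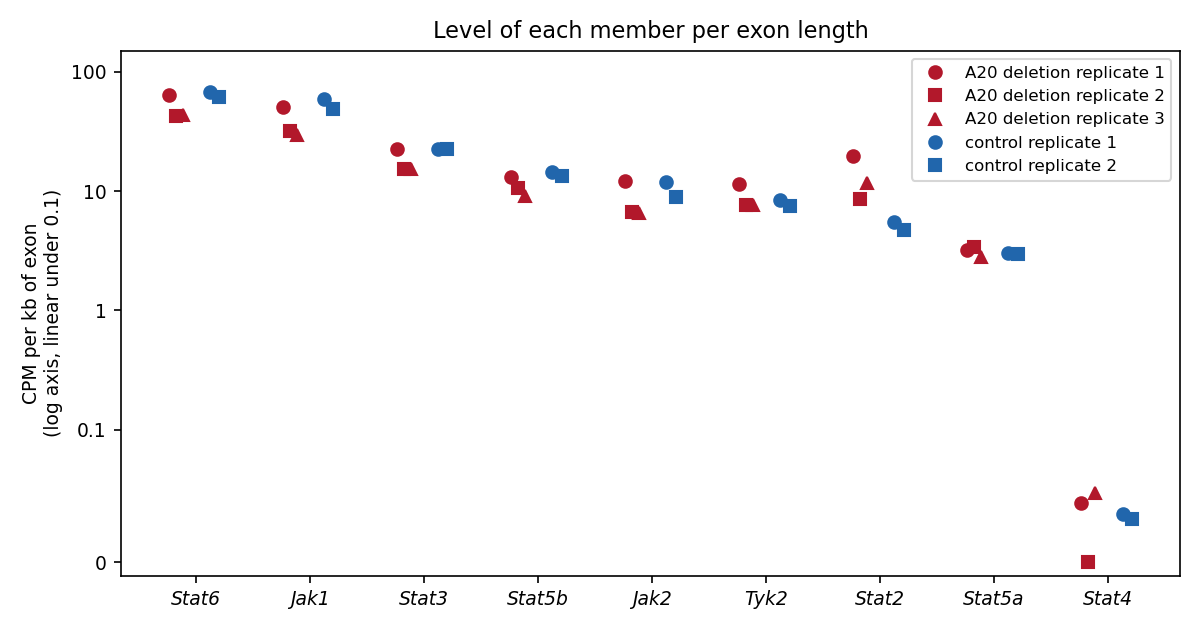
Level of each member in CPM per kilobase of exon (vertical axis, logarithmic above 0.1 and linear below), ordered by the control mean from left to right, with A20 deletion libraries in red and controls in blue and 1 point per library. Stat6 and Jak1 lead in both groups, and Stat2 lies at 8.65 or more in A20 deletion libraries and at 5.47 or less in controls.

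The 3 JAK members summed to 74.5, 46.3 and 44 CPM per kilobase in A20 deletion replicates 1 to 3, against 79.5 and 65.7 in controls. The 6 STAT members summed to 122, 80.2 and 82.2 CPM per kilobase in A20 deletion libraries, against 113 and 105 in controls. A20 deletion replicate 1 had the highest STAT sum of all libraries and replicates 2 and 3 the lowest, so the sums did not separate the groups.

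Ligands that signal through these proteins included transcripts that rose. Of 25 listed ligands 8 were tested, of which 2 rose and 0 fell (median log2 fold change 1.11). Across all tested genes 2.08% were called higher. Both ligands that rose had fewer than 10 counts in each control and passed the low-count filter through the A20 deletion libraries. The count and the median therefore lean on genes admitted because they were high in that group. Il12b, the shared subunit of interleukin-12 and interleukin-23, had 19.58, 5.424 and 10.8 CPM in A20 deletion libraries, against 0.2134 and 0.06415 CPM in controls (edgeR adjusted p = 0.0148). Ifnb1, which encodes interferon beta, had 1.819, 3.773 and 3.158 CPM in A20 deletion libraries while neither control held a count. Against a floor of 3 counts over both controls it was at least 29-fold higher (adjusted p = 0.0267). The gp130 ligand Osm averaged 166 ± 22.85 CPM in A20 deletion libraries and 51.73 ± 31.16 CPM in controls and did not pass (adjusted p = 0.0753). The count of 2 was 5 without A20 deletion replicate 1, 1 without replicate 2 or 3 of that group, 0 on leaving out any 1 control and 4 with DESeq2. Across all genes 15.7% were called higher without A20 deletion replicate 1 and 6.08% with DESeq2.

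Of the 4 tested interferon receptor genes 0 passed, with the strongest p for Ifngr1 at 950 ± 42.86 CPM in A20 deletion libraries and 1132 ± 24.81 CPM in controls (log2 -0.25, edgeR adjusted p = 0.325). Of 7 gp130-family receptors 0 passed, and their smallest p values belonged to Csf3r (log2 0.59, adjusted p = 0.105), Il6st, which encodes gp130 itself (log2 -0.54, adjusted p = 0.123), and Il6ra (log2 -0.67, adjusted p = 0.135). With DESeq2 Csf3r was called higher and Il6st and Il6ra lower, and without A20 deletion replicate 1 edgeR called these and, as lower, Lifr. In the latter fit 15.7% of all genes were called higher and 16.7% lower.

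In 3 other receptor families 1 gene each rose. Il2rg, the common gamma chain, had 48.52, 43.47 and 52.05 CPM in A20 deletion libraries, against 7.042 and 5.068 CPM in controls, a 7.93-fold rise (log2 2.99, SE 0.23, edgeR adjusted p = 0.00249). It was 1 of 7 tested genes of its family. Il3ra, the interleukin-3 receptor alpha chain, rose 3.15-fold (15.11 ± 4.153 CPM in A20 deletion libraries and 4.784 ± 0.7788 CPM in controls, adjusted p = 0.0453), as 1 of 5 tested. Il12rb2, a chain of the interleukin-12 receptor, rose 3.17-fold (10.91 ± 1.86 CPM in A20 deletion libraries and 3.429 ± 0.322 CPM in controls, adjusted p = 0.0306), as 1 of 4 tested. Its partner Il12rb1 had 32 counts over the A20 deletion libraries against 0 over both controls, at least 9.28-fold higher, and did not pass (adjusted p = 0.0776). Both chains of that receptor were thus detected in A20 deletion libraries where Stat4 had no more than 2 counts. Il3ra did not pass without A20 deletion replicate 3 or with the length trend removed, Il12rb2 did not pass without A20 deletion replicate 2 or 3, and neither passed when any 1 control was left out. Il2rg was lost without control replicate 2. Without A20 deletion replicate 1 the 3 families held 2, 4 and 3 higher calls in the order given, and the first also 1 lower, Il7r. That fit called 15.7% of all genes higher and 16.7% lower.

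Of 20 interferon-stimulated Stat2 targets, 16 rose and 0 fell, their median difference being 3.18 on the log2 scale, and this list follows a pattern already known in these data. The antiviral enzyme Rsad2 rose 12.6-fold (73.3 ± 7.83 CPM in A20 deletion libraries and 5.783 ± 1.438 CPM in controls, edgeR adjusted p = 0.00223). Ifit3 and Ifit1, which restrain translation of viral RNA, rose 12.1-fold and 9.91-fold. The 4 that did not pass were Irf9, the DNA-binding partner of Stat2 (142.4 ± 12.33 CPM in A20 deletion libraries and 99.32 ± 4.242 CPM in controls, adjusted p = 0.151), Mx2, Ifih1 and Ddx58. The count of 16 depended on the controls, since leaving out control replicate 1 gave 2, leaving out control replicate 2 gave 0 (1323 of all genes had an unadjusted p under 0.05 in that edgeR fit) and leaving out any 1 A20 deletion library gave between 12 and 18.

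Lists for the other STATs held few calls. Of 17 tested Stat3 targets 2 rose, Fgl2 (6.34-fold, edgeR adjusted p = 0.0134) and the nuclear IkB protein Bcl3 (4.37-fold, adjusted p = 0.0162), and the median log2 fold change was 0.20. Socs3, the feedback inhibitor used as a readout of Stat3, averaged 631.3 ± 110.9 CPM in A20 deletion libraries and 549.1 ± 343.2 CPM in controls (adjusted p = 0.767). Of 10 tested Stat5 targets 0 passed, with a median of 1.36, and the kinase gene Pim1 stood at 26.25 ± 4.819 CPM in A20 deletion libraries and 12.18 ± 3.799 CPM in controls (adjusted p = 0.0956). Of 10 tested Stat6 targets 0 passed, with a median of 0.64. Of 4 tested Stat4 targets 1 rose, Il12rb2, already counted among the receptors. Bcl3 is also counted among the NF-kB targets below, and Pim1 is on the Stat3 and Stat5 lists alike. Without A20 deletion replicate 1 the calls were 4 higher and 2 lower among Stat3 targets, 5 higher among Stat5 targets and 3 higher among Stat6 targets. That fit called 15.7% of all genes higher and 16.7% lower. DESeq2 called 4 Stat3, 4 Stat5 and 3 Stat6 targets higher (6.08% of all genes). With detection of Xist as a covariate edgeR called 3, 3 and 1 higher (4.6% of all genes). Differences between these lists were not tested.

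Inhibitors and partners of the pathway held 1 call between them, Usp18, which is already counted among the Stat2 targets. Of 20 tested inhibitors 1 rose and 0 fell, and the median of their log2 fold changes was 0.08. The gene that rose was Usp18, an Isg15 protease that also blocks type I interferon receptor signalling, which had 148, 67.68 and 73.34 CPM in A20 deletion libraries, against 10.03 and 11.42 CPM in controls (8.97-fold, log2 3.17, edgeR adjusted p = 0.0134). Next by p were Socs5 (log2 -0.71, adjusted p = 0.131) and the adaptor Sh2b3 (log2 -0.49, adjusted p = 0.181). Of 11 partners and adaptors 0 passed, with a median of -0.21, and the smallest p belonged to Kpna1, an importin that carries STATs into the nucleus (54.91 ± 15.65 CPM in A20 deletion libraries and 99.37 ± 6.337 CPM in controls, adjusted p = 0.128). Without A20 deletion replicate 1 the calls were 2 higher and 5 lower among inhibitors and 3 higher and 3 lower among partners. In that fit 15.7% of all genes were called higher and 16.7% lower. Usp18 did not pass when any 1 control was left out, and with DESeq2 Socs5 and Kpna1 were called lower.

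For comparison, 8 of 18 NF-kB targets rose and 0 fell (median log2 fold change 0.96), with the smallest p for Cd40 (27.2-fold), Ccl5 (63.4-fold) and Cxcl10 (20.6-fold). Cd40 had 8 and 7 counts in the controls and passed the low-count filter through the A20 deletion libraries. Leaving out A20 deletion replicate 1 gave 11 NF-kB targets higher and 2 lower (Nfkb1 and Rel), where 15.7% of all genes were called higher and 16.7% lower. Leaving out replicate 2 gave 5 higher and leaving out replicate 3 gave 3 higher. Without control replicate 1 the genes of all pathway lists that passed as higher were Il2rg, Rsad2, Ifit3, Fos, Cd40, Cxcl10 and Ccl5, and Fos did not pass with all libraries. Without control replicate 2 the number was 0. Most tested monocyte markers moved in the same libraries. The 10 listed markers summed to 124, 82 and 83.5 CPM in A20 deletion libraries, against 24.8 and 20.6 CPM in controls, and 2 of 8 tested rose, Ms4a4c and Plac8. The defining monocyte gene Ly6c2 reached 1.04, 0.5503 and 1.222 CPM in A20 deletion libraries, against 0.07113 and 0 CPM in controls. Ccr2 went the other way, with 8.144, 5.188 and 5.5 CPM in A20 deletion libraries, against 11.52 and 8.211 CPM in controls. It did not pass (edgeR adjusted p = 0.271) and was called lower without A20 deletion replicate 1. Of the 8 tested, 6 lay above both controls in every A20 deletion library and 1 below (21.8% and 18.5% of all tested genes). Dendritic cell markers summed to 1520, 1760 and 1560 CPM in A20 deletion libraries and 927 and 831 CPM in controls, and 2 of 8 rose, Itgax and Bst2, of which Bst2 is also listed as a Stat2 target. Siglech, which is on the microglial list too, supplied 753.8, 1299 and 975.1 CPM of that sum in A20 deletion libraries and 811.4 and 702.5 CPM in controls. Astrocyte markers summed to 197, 409 and 412 CPM in A20 deletion libraries and 176 and 255 CPM in controls, with Aldh1l1 higher. Of the tested markers of B cells (2), neutrophils (6), border-associated macrophages (8), neurons (5), the oligodendrocyte lineage (6) and endothelium (6), 0 passed. Their part in the results was not tested.

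**Figure D5:**
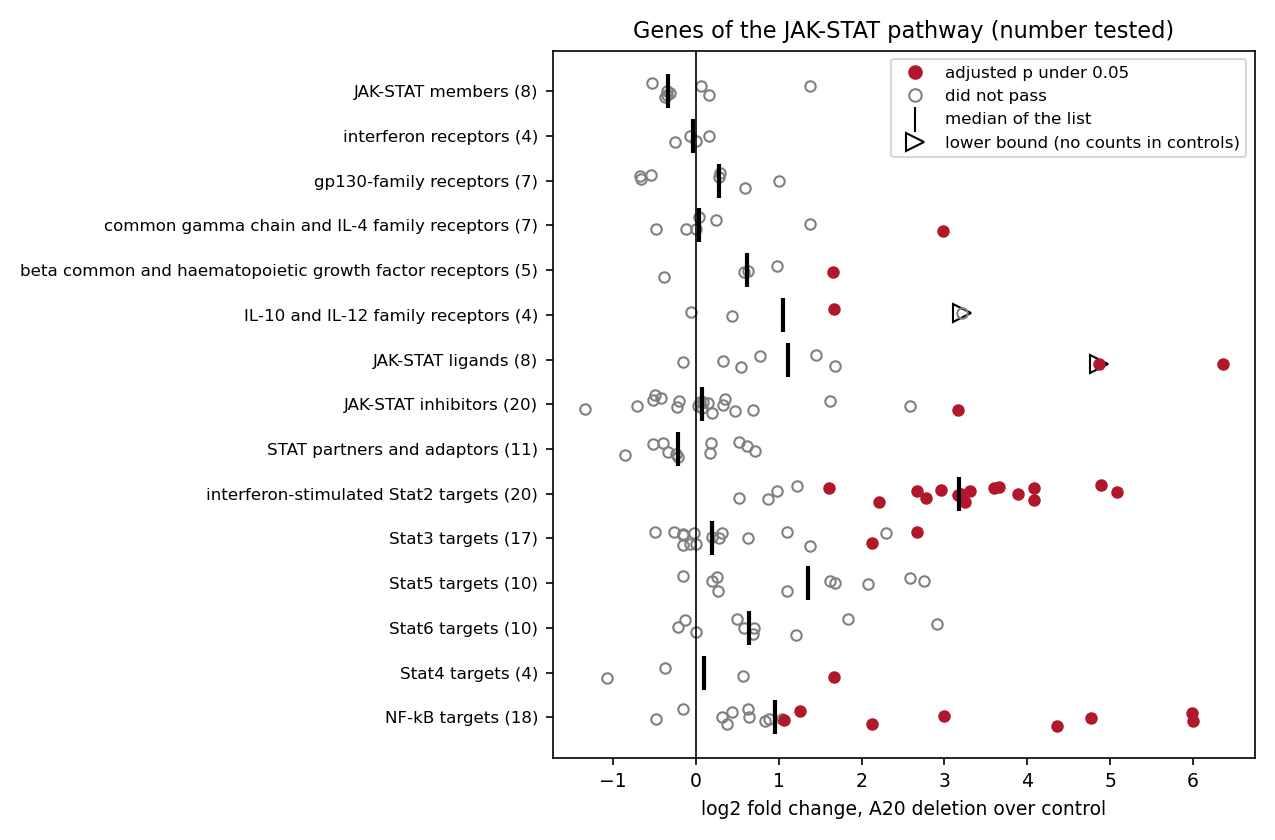
Log2 fold change of A20 deletion over control (horizontal axis) for the tested genes of each pathway list (vertical axis, number tested in brackets), with genes of an adjusted p under 0.05 in filled red, others open, list medians as black bars and genes without control counts drawn at their lower bound. Red points gather among the interferon-stimulated Stat2 targets (16 of 20) and NF-kB targets (8 of 18), and the members themselves have 0.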

How the data were processed

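Counts of reads per Ensembl gene, not normalized, were deposited by the authors for 5 libraries. STAR 2.4.0j, featureCounts, DESeq2 1.22.1 and the build, GRCm38, come from the submitters' processing notes, per the labels. Annotation release, strand setting and the handling of multi-mapping reads are unstated in the sources used. Symbols, positions and exon lengths came from GENCODE M21 (40254 of 41388 genes matched). Genes were filtered with filterByExpr (minimum count 10, minimum total 15), scaled by TMM and compared with edgeR 4.0.16 (quasi-likelihood test, two-sided, no covariate, R 4.3.3), with Benjamini-Hochberg adjustment over all genes and a threshold of 0.05. SEs are approximate (log2 fold change over the root of F). Alternatives used limma 3.58.1 and DESeq2 1.42.0. On simulated counts (10 sets, 200 changed genes each, a median of 11895.5 genes tested) 1.08% of 1.5-fold changes, 10.3% of 2-fold changes and 70.6% of 4-fold changes were found, while 10.5% of calls were false. The members and lists were chosen with earlier results of these data known. Genes named were all members, up to 3 genes with the smallest p per pathway list, per list of other cells those with the smallest p or highest CPM, the 3 most abundant microglial markers (1 of them is not reported here) and the 3 genes most like a called member. No member was called, so Stat2 was used there. Ly6c2, Cd3e, Cd3d, Cd3g, Trac, Socs3, Mx2, Ddx58, Irf9, Fos, Nfkb1, Rel, Lifr, Plac8, Itgax, Aif1, Fcrls and (as like Stat2) Ifih1 fall outside the rule in the list where they are named and were chosen after their values were seen. The same holds for Ccr2. Exons of Stat3 and Stat5a overlap by 72 bases on opposite strands, and those of Tyk2 overlap an antisense gene with 0 counts, so such reads may be misassigned.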

Additional observations from a re-analysis of the deposited data

How the results depend on the processing

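No member passed in 14 of 20 alternatives. Among these, the cut-offs of an adjusted p under 0.01 and of a log2 fold change of at least 1 reuse the main fit and could add no call. The count of genes called, 317 with all libraries, was 1701 without a filter, 1110 with DESeq2, 824 with Xist detection as a covariate (added after the data were seen), 211 with limma-voom and 58 at an adjusted p under 0.01, and leaving out 1 library gave between 0 (control replicate 2 left out) and 3923 (A20 deletion replicate 1 left out). Of the calls 80.4% were higher, against 61.6% without a filter, 67% with DESeq2 and 48.5% in the fit lacking A20 deletion replicate 1. All genes had a median difference of 0.05 on the log2 scale, and of 0.17 without a filter. Members called higher numbered 1 (Stat2) without a filter, with DESeq2, with either covariate and with A20 deletion replicate 1 alone, and 0 to 1 on leaving out a library. Members called lower numbered 0 to 5 on leaving out a library. Directions turned for Stat3 (0.015 with A20 deletion replicate 1 alone), Jak2 (0.217 in that fit and 0.095 with the mitochondrial covariate), Stat5a (-0.012 to 0.144 on leaving out a library) and Tyk2 (-0.099 to 0.532, the first without A20 deletion replicate 1 and the second with it alone; 0.269 was the highest on leaving out 1 library). None of these turned values passed, and the cause was not tested. The Stat2 share differed by 7.73 to 10.4 percentage points and the Stat5a share by 4.34 to 6.96 on leaving out a library. With the replicate number as a block (replicate block) 260 genes passed, 219 of them shared with the 317, and Stat2 stood at 1.36 (adjusted p = 0.0655). Deviations of same-numbered libraries correlated at 0.26 and 0.167, and with 2 shared numbers this does not show that they are pairs. On simulated counts changes of 1.5-fold were found in 1.08% of cases. Without A20 deletion replicate 1, 5 members with differences of -0.83 to -0.52 on the log2 scale were called lower.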
